A study of Mus musculus with 14 samples.

Results

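The Wnt signalling genes described here are 10 genes that span the pathway, from secreted ligands to the nucleus. The ligands are Wnt3 and Wnt6, the receptor is Fzd7, and the secreted inhibitors are Sfrp1 and Dkk1. Inside the cell the list holds Ctnnb1, which encodes beta-catenin, and Axin2, and in the nucleus the DNA-binding factors Lef1, Tcf7 and Tcf7l1. They were chosen by name, 10 of 21887 protein-coding genes, and all 10 carried listed peaks of every methylation mark in every condition. The series mapped histone H3 lysine 4 (H3K4) methylation by chromatin immunoprecipitation and sequencing in mouse embryonic stem cells derived from blastocysts of the C57BL/6J strain. Every group carried the genotype Mll1fl/fl; Cre-ER TM, that is, floxed alleles of the H3K4 methyltransferase gene Mll1 (Kmt2a) with a tamoxifen-inducible Cre recombinase, and was grown with leukaemia inhibitory factor on Matrigel without feeder cells. The groups were cells given the Mll1 inhibitor MM-401 (100 µM, 9 days, 3 passages), cells given 4-hydroxytamoxifen (4-OHT, 5 µM, 9 days, 3 passages) to delete Mll1, and untreated cells. Mono-, di- and trimethylated H3K4 (H3K4me1, H3K4me2 and H3K4me3) were mapped in each group and the Mll1 protein in untreated cells, always with 1 library per group, so that no difference below has a replicate check. The promoter that drives the Cre, and whether the cells are 1 clone, are not given in the sources used here.

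In canonical Wnt signalling a Wnt ligand binds a Frizzled receptor and its co-receptor, the complex that marks beta-catenin for destruction is switched off, and beta-catenin enters the nucleus and activates genes together with TCF/LEF factors. Sfrp1 captures ligands outside the cell, Dkk1 blocks the co-receptor, and Axin2 is a scaffold of the destruction complex that is itself induced by the pathway, which makes it a common readout. In mouse embryonic stem cells Wnt signalling favours self-renewal, Tcf7l1 (also called Tcf3) represses pluripotency genes, and beta-catenin relieves that repression. H3K4me3 marks gene starts, H3K4me1 marks enhancers and the borders of starts, and H3K4me2 is found at both.

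Levels are given as tags per M, the summed tags of all listed peaks that lie inside a gene or within 10 kb of either of its ends, per M (1000000) filtered tags of the library. The filtered depth was 12.9 to 22.2 M in the MM-401 libraries, 26.4 to 61.8 M in the 4-OHT libraries and 25.3 to 40.1 M in the untreated mark libraries. Ratios are log2 of treated over untreated, so that positive values are higher in treated cells. A ratio past 1.5-fold (0.58 on the log2 scale) was counted as a difference, since no test across libraries was possible. Intervals are 95% and cover counting error only. A lower level could come from fewer cells that carry a mark or from less of it per cell, and these cannot be told apart in bulk cells. The MM-401 libraries were processed in another folder and with longer tags (57 to 60 bp, against 50 to 51 bp), so MM-401 and that processing cannot be told apart. The start of Kmt2a itself carried 118 (MM-401), 107 (4-OHT) and 107 (untreated) tags per M of H3K4me3, which does not test the deletion because the removed part of the gene is not given in the sources used here. As a check of cell type, all 6 pluripotency markers examined carried H3K4me3 at their starts, with medians of 152 (MM-401), 148 (4-OHT) and 103 (untreated) tags per M. Of the markers of other organs, Alb, Ins2 and Actc1 were at 0 in every condition, and Myod1 was at 12.4 (MM-401), 10.6 (4-OHT) and 13.4 (untreated) tags per M. Medians were 22.3 (MM-401), 27.0 (4-OHT) and 25.9 (untreated) tags per M for 5 primitive endoderm markers, 25.5, 36.2 and 33.6 for 5 trophectoderm markers, and 6.03, 9.77 and 10.3 for 5 fibroblast markers, in the same order. Each of these 3 lists held 1 gene at 0 in every condition, Gata4, Elf5 and Dcn by list. The lists overlap in level. The trophectoderm marker Tfap2c held 222 (MM-401), 128 (4-OHT) and 147 (untreated) tags per M, and the pluripotency marker Esrrb 27.4, 37.5 and 34.5. The part that these markers have in the results was not tested.

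The promoters of the members differed widely in CpG count and in matches to the core that TCF/LEF factors bind. Mll1 is known to read unmethylated CpG through its CXXC domain, but DNA methylation was not analysed here, so only letters were counted. RefSeq promoter sequences (GRCm38.p6, 250 bases before to 50 after the start) were matched for 9 of the 10 genes, 14 promoters in all. CpG counts ran from 5 and 8 at the internal starts of Lef1 and 9 at Dkk1 to 46 and 51 at Ctnnb1, where the median over all 21263 promoters was 13 (quartiles 4 and 24). Ctnnb1, whose start lies next to an Mll1 peak, and Axin2, which has no Mll1 peak, are shown with CpG in capitals and hold 46 and 31 of them. The outermost promoter of Tcf7 held 45, with no listed Mll1 peak at that gene. Whether CpG has a part in Mll1 binding was not tested. Dkk1 and Tcf7l1 are shown with the 6-letter TCF/LEF cores CTTTGA and CTTTGT, searched on both strands, in capitals.
Ctnnb1, chr9:120933150-120933449, plus strand: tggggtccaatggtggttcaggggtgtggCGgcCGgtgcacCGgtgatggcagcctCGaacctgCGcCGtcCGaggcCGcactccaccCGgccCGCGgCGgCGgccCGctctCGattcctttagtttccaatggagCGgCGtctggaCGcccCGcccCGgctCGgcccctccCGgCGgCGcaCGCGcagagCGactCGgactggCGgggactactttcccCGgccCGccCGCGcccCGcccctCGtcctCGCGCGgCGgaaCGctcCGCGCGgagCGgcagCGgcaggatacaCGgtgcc
Axin2, chr11:108920099-108920398, plus strand: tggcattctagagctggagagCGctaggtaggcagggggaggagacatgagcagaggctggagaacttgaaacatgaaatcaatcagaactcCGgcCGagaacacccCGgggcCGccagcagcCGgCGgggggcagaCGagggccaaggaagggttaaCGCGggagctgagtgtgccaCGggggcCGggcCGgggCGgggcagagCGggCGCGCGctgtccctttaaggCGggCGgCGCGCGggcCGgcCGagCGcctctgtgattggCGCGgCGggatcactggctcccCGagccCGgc
Dkk1, chr19:30549447-30549746, minus strand: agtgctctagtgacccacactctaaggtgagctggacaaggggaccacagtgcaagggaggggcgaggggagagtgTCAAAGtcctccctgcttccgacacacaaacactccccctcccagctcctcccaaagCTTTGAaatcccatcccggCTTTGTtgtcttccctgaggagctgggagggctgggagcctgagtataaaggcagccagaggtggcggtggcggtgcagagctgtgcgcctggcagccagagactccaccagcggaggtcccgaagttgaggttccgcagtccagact
Tcf7l1, chr6:72788996-72789295, minus strand: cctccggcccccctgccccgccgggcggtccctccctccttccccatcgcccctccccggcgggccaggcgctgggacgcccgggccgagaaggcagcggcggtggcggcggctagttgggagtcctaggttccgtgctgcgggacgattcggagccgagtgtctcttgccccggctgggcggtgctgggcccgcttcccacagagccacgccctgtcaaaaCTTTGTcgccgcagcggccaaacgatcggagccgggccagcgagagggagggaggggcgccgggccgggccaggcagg

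The Dkk1 promoter held 3 matches to a core, which began 174, 117 and 98 bases upstream of the start. The Tcf7l1 promoter held 1, beginning 28 bases upstream. The internal Lef1 start at chr3:131156294 also had 3, and Fzd7 and Wnt3 had 1 each. At least 1 of the cores was present in 28.3% of all promoters (CTTTGA in 14.4% and CTTTGT in 16.8%), so a single match is common and is a description of the letters only. No match was found in the promoter sequences of Wnt6, Ctnnb1, Axin2 or Tcf7.

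No mark moved the same way at all 10 genes under either treatment, and 2 of the 60 treated-to-untreated ratios were past 1.5-fold. These were H3K4me1 at Tcf7l1 after 4-OHT and H3K4me3 at Dkk1 after MM-401, both lower in treated cells. After MM-401, 0 of 10 members were past 1.5-fold in H3K4me1 and 0 in H3K4me2, where 20.2% and 8.55% of all genes tested were. In H3K4me3 1 member was lower after MM-401, where 11.5% of genes were lower. After 4-OHT 1 member was lower in H3K4me1, where 2.8% of genes were, and 0 were past 1.5-fold in H3K4me2 and in H3K4me3, where 5.96% and 5.66% of genes were. These shares are over genes with at least 1 tag per M in either library. No member window held under 16.6 tags per M of a methylation mark, so the shares are not matched for level. The members' median log2 ratios after MM-401 were 0.18 for H3K4me1, 0.18 for H3K4me2 and -0.04 for H3K4me3, beside -0.13, 0.06 and 0.07 over all genes tested. After 4-OHT they were 0.13, 0.09 and 0.09, beside 0.16, 0.05 and 0.02 over all genes. Ratios above 0 after MM-401 were found at 7 of 10 members in H3K4me1, 8 in H3K4me2 and 5 in H3K4me3. The shares of all genes above 0 were 34.6%, 61.6% and 58.7%. For 4-OHT the counts were 7, 6 and 6, beside 70.1%, 61.0% and 55.1%. Leaving out Tcf7l1, a choice made after the data were examined, moved the H3K4me3 median after MM-401 to 0.12. The 2 treatments share the untreated libraries, so their ratios at a gene are not independent of each other. Scaling to tags in peaks would shift every ratio by 0.12 in H3K4me1 after MM-401 and by -0.12 in H3K4me2 after 4-OHT, and by less than 0.1 elsewhere.

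**Figure D1:**
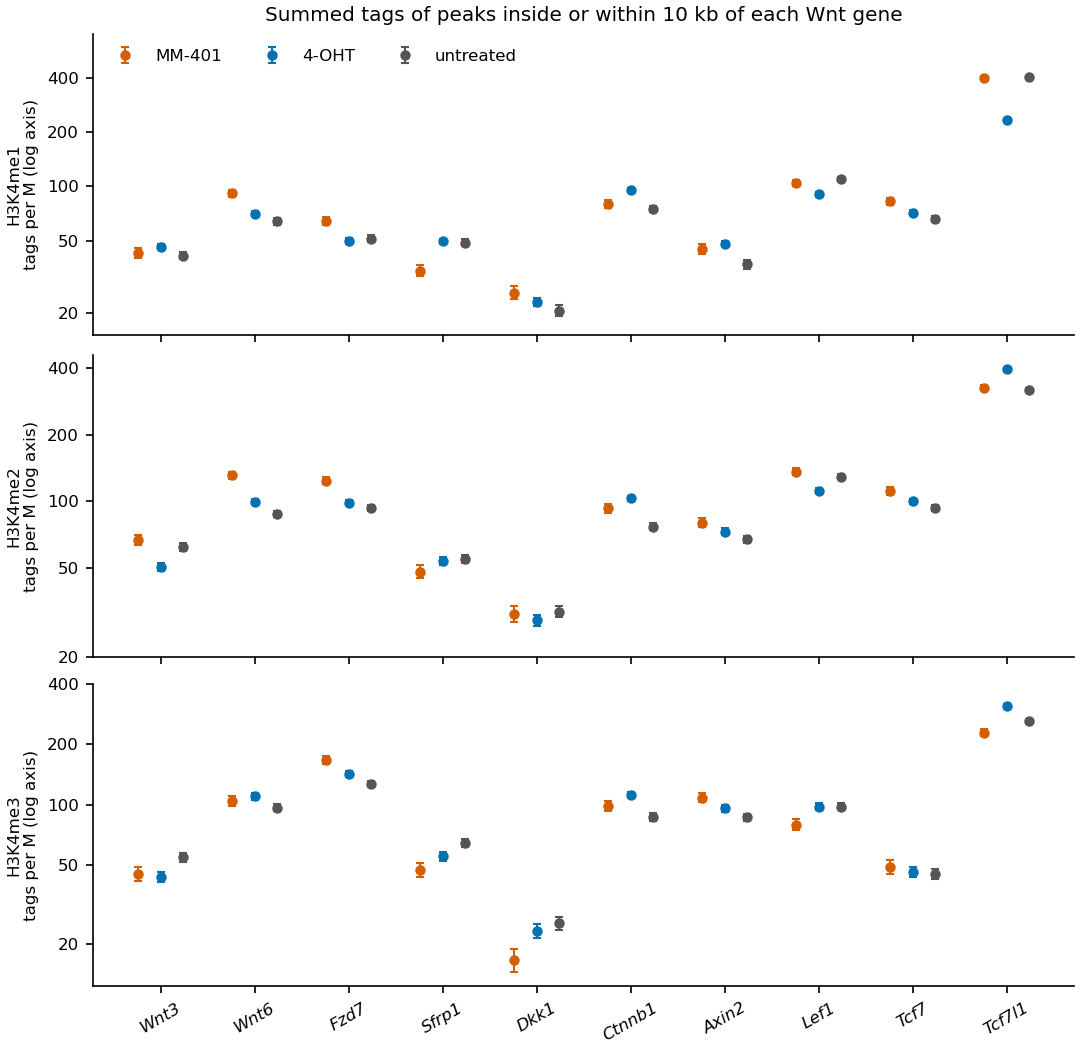
Tags per M of listed peaks inside or within 10 kb of each gene (log axis), for H3K4me1, H3K4me2 and H3K4me3 from top to bottom, in MM-401, 4-OHT and untreated cells (1 library each); bars are 95% Poisson intervals. Tcf7l1 has the highest total of each mark and stands apart in H3K4me1 at 233 after 4-OHT, against 402 in untreated cells, and Dkk1 has the lowest.

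**Figure D2:**
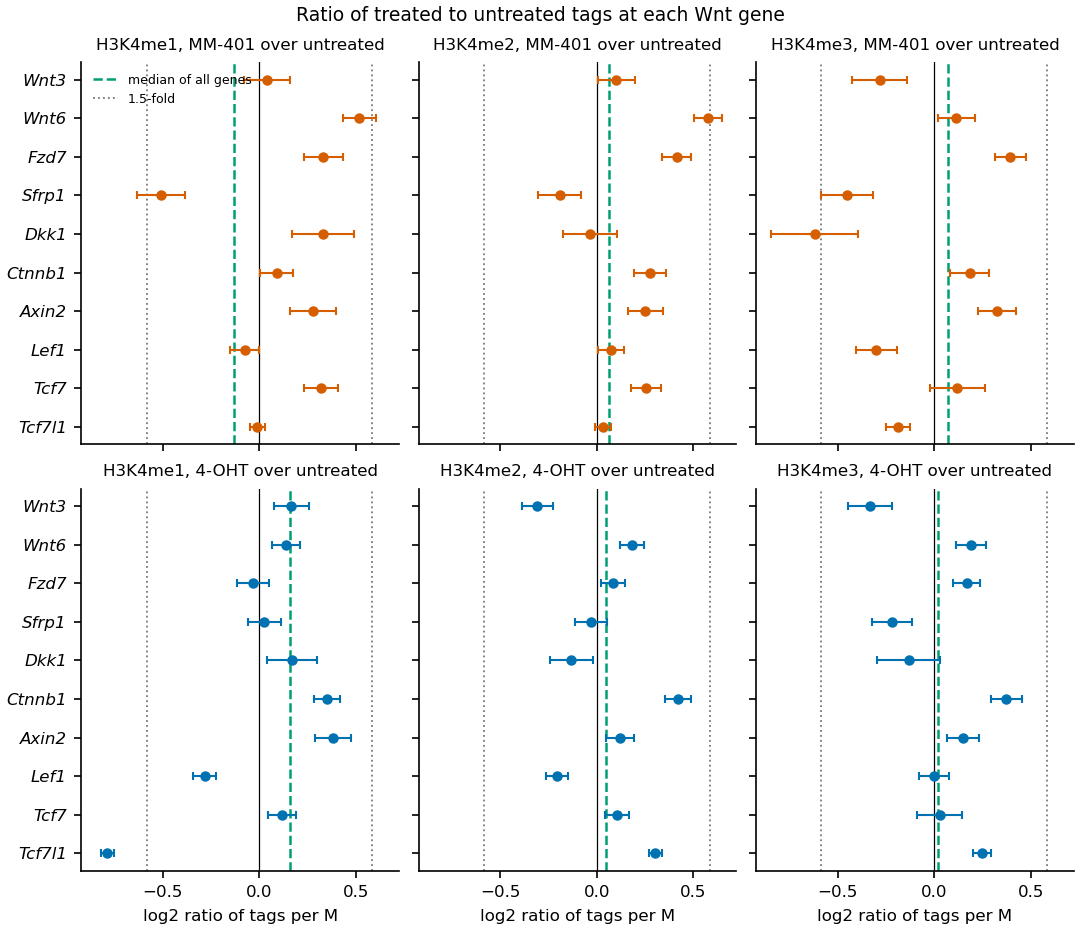
Log2 ratio of tags per M, MM-401 over untreated (top) and 4-OHT over untreated (bottom), for each gene and mark, with 95% counting intervals; the dashed line is the median of all genes tested and the dotted lines mark 1.5-fold. The points beyond a dotted line are Tcf7l1 in H3K4me1 after 4-OHT (-0.79) and Dkk1 in H3K4me3 after MM-401 (-0.62).

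Among the ligands, Wnt6 carried more of each mark over its window in treated than in untreated cells, under 1.5-fold in each case, but less H3K4me1 within 1 kb of the start. H3K4me1 there was 14.9 (MM-401), 11.9 (4-OHT) and 17.1 (untreated) tags per M, ratios of -0.20 and -0.52, and the H3K4me3 ratio there after MM-401 was -0.01. Wnt6 (chr1:74754342-74785322) carried 131 tags per M of H3K4me2 in MM-401 cells, 99.8 in 4-OHT cells and 87.9 in untreated cells. The MM-401 ratio of 0.57 (0.50 to 0.65) was just inside the 1.5-fold limit and its interval reaches past it. H3K4me1 stood at 91.7 (MM-401), 70.6 (4-OHT) and 64.1 (untreated) tags per M, and H3K4me3 at 105, 110.0 and 96.5 in the same order. The H3K4me1 ratio after MM-401 was 0.52, or 0.64 and so past 1.5-fold per M tags in peaks. After 4-OHT the H3K4me1 ratio was 0.14, beside a median of 0.16 over all genes. The excess of H3K4me2 after MM-401 lay in several peaks. The peak over the listed start (chr1:74771892) held 35.9 tags per M in MM-401 cells, against 24.2 in untreated cells, and the peak at the gene's far end held 35.8 against 26.1. The neighbouring genes Prkag3 and Wnt10a also lie in the window, and a 6519-bp MM-401 peak towards Wnt10a held 43.1 tags per M, where untreated cells had 2 peaks of 13.2 and 13.4.

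Wnt3, a ligand needed for the primitive streak in the mouse embryo, had less H3K4me3 after both treatments. Its window (gene at chr11:103774175-103818021) held 44.9 tags per M in MM-401 cells, 43.4 in 4-OHT cells and 54.6 in untreated cells, with ratios of -0.28 (-0.42 to -0.14) and -0.33 (-0.45 to -0.22). Most of this lay away from the start. The peak over the start held 18.6 (MM-401), 17.9 (4-OHT) and 20.2 (untreated) tags per M. A small untreated H3K4me3 peak of 54 tags near the far end of the gene met no treated peak. Another of 51 tags upstream of the start met no MM-401 peak and was overlapped in 4-OHT cells by the start peak, which was 4161 bp wide, against 2828 bp in untreated cells. H3K4me2 was lower in 4-OHT cells (50.5 tags per M) and higher in MM-401 cells (67.1) than in untreated cells (62.5). H3K4me1 was 42.7, 46.5 and 41.5 tags per M in MM-401, 4-OHT and untreated cells. The 4-OHT value includes a 5443-bp peak of 672 tags at the very edge of the window, and with the gene body and 1 kb around it alone the 4-OHT ratio turned to -0.22. Nsf lies in the window, and Wnt9b overlaps the start of Wnt3.

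The receptor gene Fzd7, the Frizzled receptor with a known role in the pluripotent state, had the most H3K4me3 per kb of window among the members. Its H3K4me3 lay almost wholly in a single broad peak over the start (gene at chr1:59482147-59486955), 8766 bp wide in MM-401, 8241 bp in 4-OHT and 8548 bp in untreated cells. The window held 167 tags per M in MM-401 cells, 143 in 4-OHT cells and 127 in untreated cells, and the intervals of the 3 do not overlap. The ratios were 0.39 (0.31 to 0.47) and 0.17 (0.10 to 0.24). H3K4me2 stood at 124, 98.8 and 93.1 tags per M, and its 4-OHT ratio of 0.09 became -0.04 per M tags in peaks. H3K4me1 was higher in MM-401 cells (64.5) than in untreated cells (51.3) and near untreated in 4-OHT cells (50.03). No other gene lies in the Fzd7 window.

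Of the secreted inhibitors, Dkk1 had the lowest totals of every mark and the largest MM-401 difference of the list in H3K4me3. The Dkk1 window (gene at chr19:30545876-30549496) held 16.6 tags per M of H3K4me3 in MM-401 cells (215 tags), 23.3 in 4-OHT cells (615 tags) and 25.5 in untreated cells (645 tags). MM-401 cells were low, 1.5-fold under untreated cells or more, and the 4-OHT and untreated intervals overlap. The MM-401 ratio was -0.62 (-0.85 to -0.39), so counting error alone spans the 1.5-fold limit, and counting only peaks within 1 kb of the gene gave -0.36, and the 4-OHT ratio was -0.13 (-0.29 to 0.03), or 0.05 within 1 kb of the gene. The same 3 peaks were listed in all 3 conditions. The start peak, which lies over the promoter with 3 TCF/LEF cores shown above, held 10.1 (MM-401), 13.4 (4-OHT) and 12.9 (untreated) tags per M. The difference was widest in the peak about 4 to 6 kb upstream, at 3.64 tags per M (47 tags) in MM-401 cells, 6.10 in 4-OHT cells and 8.23 (208 tags) in untreated cells. H3K4me2 did not share this order, at 31.1, 29.1 and 31.9 tags per M, and H3K4me1 was higher in MM-401 cells (25.8) and 4-OHT cells (23.1) than in untreated cells (20.5). The H3K4me1 ratio after 4-OHT was 0.17, beside a median of 0.16 over all genes. Depth differs here as well: the MM-401 H3K4me3 library held 51.2% of the untreated tags, and its part in the result was not tested.

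Sfrp1 (chr8:23411383-23449632), the other inhibitor, had less of each mark in MM-401 cells, under 1.5-fold. H3K4me1 stood at 34.3 tags per M in MM-401 cells, 49.7 in 4-OHT cells and 48.8 in untreated cells. The MM-401 ratio was -0.51 (-0.64 to -0.39), or -0.87 with peaks of score 100 and above alone, on 7 listed peaks, against 11 in untreated cells and 10 in 4-OHT cells. The summed width of those peaks was 16397 bp (MM-401), 30457 bp (4-OHT) and 25025 bp (untreated). Counting only H3K4me1 peaks within 1 kb of either end gave an MM-401 ratio of -0.08 (-0.29 to 0.12). The MM-401 H3K4me1 library held 60.3% of the untreated filtered tags, and the part of depth was not tested. H3K4me3 was ordered in steps, at 47.0 (MM-401), 55.2 (4-OHT) and 64.2 (untreated) tags per M, with ratios of -0.45 (-0.59 to -0.32) and -0.22 (-0.32 to -0.11). H3K4me2 was 48.4, 54.0 and 55.2 tags per M, and its MM-401 ratio of -0.19 became -0.05 with lists of equal length. In 4-OHT cells the Sfrp1 H3K4me1 peak at the gene's lower end was 9911 bp long, over ground that held 4 separate peaks in untreated cells.

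Ctnnb1 (chr9:120933400-120960507) had more of all 3 marks in 4-OHT cells than in untreated cells, each under 1.5-fold. H3K4me1 stood at 80.0 tags per M in MM-401 cells, 95.9 in 4-OHT cells and 75.3 in untreated cells. H3K4me2 stood at 93.3, 103 and 77.1, and H3K4me3 at 98.5, 112 and 86.6, in the same order. The 4-OHT ratios were 0.35 (0.28 to 0.42), 0.42 (0.36 to 0.49) and 0.37 (0.29 to 0.45), and each interval lay above the all-gene median. H3K4me3 also reached further into the gene. The peak over the start was 5745 bp wide in MM-401 cells, 8854 bp in 4-OHT cells and 6399 bp in untreated cells, and a further 4-OHT peak of 3643 bp (chr9:120945508-120949150, 150 tags) met no untreated H3K4me3 peak. Behind the start, H3K4me2 ran as a single peak of 18108 bp in 4-OHT cells, where untreated cells had peaks of 1673 and 15611 bp. H3K4me1 was absent from the peak lists for about 1.2 kb over the start in every condition and filled the gene body behind it, in a peak of 15511 bp (MM-401), 20653 bp (4-OHT) and 15767 bp (untreated). Ulk4 also lies in the window.

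Axin2 (chr11:108917828-108950783) likewise had more of each mark in treated cells than in untreated cells, under 1.5-fold, except that H3K4me2 after 4-OHT turned from a ratio of 0.12 to -0.01 when scaled per M tags in peaks. H3K4me3 stood at 108 tags per M in MM-401 cells, 95.8 in 4-OHT cells and 86.4 in untreated cells, with ratios of 0.33 (0.23 to 0.42) and 0.15 (0.07 to 0.23). H3K4me2 was 80.3, 73.2 and 67.4 tags per M. H3K4me1 was 44.9, 48.3 and 37.1 tags per M. The width of the H3K4me3 peak over the start hardly differed, at 4613, 4609 and 4383 bp. A listed H3K4me1 peak reached the start itself in treated cells. It was 968 bp wide in MM-401 cells (1.76 tags per M), 3796 bp in 4-OHT cells (6.01) and 862 bp in untreated cells (0.92), and the untreated peak ended 71 bp before the start. The 4-OHT peak ran over ground that held 2 separate untreated peaks. No other gene lies in the Axin2 window.

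Of the DNA-binding factors, Lef1 and Tcf7 activate with beta-catenin, and neither was past 1.5-fold in any mark. Lef1 (chr3:131110297-131224357) had H3K4me3 of 79.5 tags per M in MM-401 cells, 97.8 in 4-OHT cells and 97.9 in untreated cells. MM-401 cells were low, with a ratio of -0.30 (-0.41 to -0.19), and had 3 listed peaks, against 9 in 4-OHT and 10 in untreated cells. With lists of equal length the MM-401 ratio was -0.19. The MM-401 H3K4me3 library held 51.2% of the untreated filtered tags, and the part of depth was not tested. The start peak was alike in tags, at 58.3, 64.4 and 59.0 tags per M, so the MM-401 difference lay in the small peaks along the gene. H3K4me1 was 104 (MM-401), 90.3 (4-OHT) and 110.0 (untreated) tags per M and H3K4me2 136, 112 and 129, with 4-OHT cells lowest in both. The H3K4me1 order depends on which peaks are counted. With the gene body and 1 kb around it alone the ratios turned to 0.31 (MM-401) and 0.10 (4-OHT). Tags are summed over whole peaks, so that setting turns on where a long peak near the start ends. The internal Lef1 start at chr3:131156294, with 5 CpG in its promoter, lay inside an H3K4me1 and an H3K4me2 peak in every condition and inside no H3K4me3 peak. Hadh lies in the window.

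Tcf7 (chr11:52246527-52283383) was higher after both treatments in H3K4me1 and H3K4me2 by small steps, although the 4-OHT ratios turned to -0.07 for H3K4me1 with the gene body and 1 kb around it alone and to -0.02 for H3K4me2 per M tags in peaks. H3K4me1 stood at 82.6 (MM-401), 71.7 (4-OHT) and 66.2 (untreated) tags per M, with ratios of 0.32 (0.23 to 0.41) and 0.12 (0.04 to 0.19). The medians over all genes were -0.13 and 0.16, so the 4-OHT ratio lay below the median. In H3K4me2 the 4-OHT ratio was 0.10, beside 0.05 over all genes. H3K4me2 stood at 111, 99.99 and 93.1 tags per M, of which an untreated peak of 1832 tags spans the edge of the window towards Skp1. H3K4me3 was 48.9, 45.9 and 45.0 tags per M, and all 3 intervals overlap.

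Tcf7l1, the repressor among the factors, is the longest member (chr6:72626371-72789045) and held the one ratio that lay past 1.5-fold over its whole counting interval. H3K4me1 stood at 399 tags per M in MM-401 cells, 233 in 4-OHT cells and 402 in untreated cells. The 4-OHT cells alone were low, with a ratio of -0.79 (-0.82 to -0.76), and the MM-401 ratio was -0.01 (-0.05 to 0.03). The other marks went the other way in 4-OHT cells. H3K4me2 was 325 (MM-401), 393 (4-OHT) and 318 (untreated) tags per M, and H3K4me3 was 229, 310.4 and 261.

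The H3K4me1 difference lay in a single stretch of 64.6 kb in the first part of the gene (chr6:72715788-72780415), in which the 4-OHT list holds no H3K4me1 peak. In the other lists that stretch was dense: 4 peaks with 215 tags per M in MM-401 cells and 7 peaks with 208 in untreated cells, over 86.2% and 90.2% of its length. H3K4me2 over the same stretch held 136 (MM-401), 166 (4-OHT) and 127 (untreated) tags per M, and H3K4me3 held 0 (no listed peak), 56.8 and 32.1. The 13 untreated H3K4me3 peaks there were small, with 812 tags in sum, and the MM-401 H3K4me3 library held 51.2% of the untreated filtered tags. The MM-401 value of 0 is thus a statement about listed peaks, and whether depth has a part in it was not tested. Outside the stretch H3K4me3 was 229 (MM-401), 254 (4-OHT) and 229 (untreated) tags per M. In the rest of the window H3K4me1 was higher in 4-OHT cells, at 233 tags per M, than in untreated cells, at 194, with a ratio of 0.26 (0.22 to 0.31). The lower total over the window thus lay in this blank of the list. The stretch was marked out by its lack of 4-OHT H3K4me1 peaks, so the blank follows from that choice. The same choice raises the ratio of the rest. The 4-OHT H3K4me1 library was the deepest of the 10 precipitated libraries at 61.8 M filtered tags, and the part of depth was not tested. Counting only peaks within 1 kb of the start turned the ratio to 0.84. The H3K4me3 peak at the neighbouring gene Tgoln1 (2360 untreated tags) also enters the window.

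**Figure D3:**
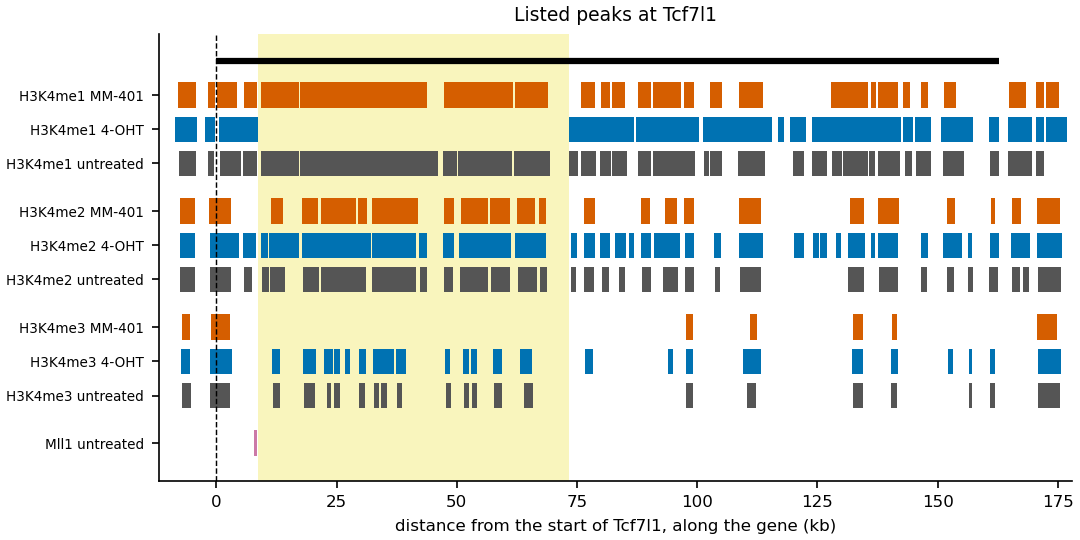
Listed peaks at Tcf7l1 by distance from its start (kb, along the gene), a row for each mark and condition (MM-401, 4-OHT, untreated) and for Mll1; the black bar is the gene, the dashed line its start and the shaded band the stretch of 64.6 kb. Inside the band the H3K4me1 row of 4-OHT cells is empty, while the H3K4me2 and H3K4me3 rows of 4-OHT cells hold 8 and 15 peaks.

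Such blanks were found elsewhere in the 4-OHT H3K4me1 list. Of 923 untreated H3K4me1 domains of at least 20 kb (peaks joined over gaps of up to 1 kb), 44 (4.77%) had no 4-OHT H3K4me1 peak at all, while 1 had no MM-401 peak. In the other direction, 0 of 1627 such 4-OHT domains and 9 of 644 MM-401 domains lacked an untreated peak. All 44 held a 4-OHT H3K4me2 peak, and in 43 the H3K4me2 cover was larger in 4-OHT cells than in untreated cells. The same shares over all 923 domains are not given here, so these counts do not set the blank domains apart from the others. The Tcf7l1 stretch contains 1 of these 44 domains (chr6:72719615-72741838). None of the 79 other Wnt genes listed below had such a blank domain within 10 kb. The share over all genes is not given here, so this does not set those genes apart. No long untreated H3K4me2 or H3K4me3 domain (190 and 4) lacked a 4-OHT peak. The signal below the peak lists was not analysed here, so whether tags are absent from the stretch was not tested. The Tcf7l1 value is a statement about listed peaks.

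Per kb of window, the order of the members in untreated cells differed between marks. In H3K4me3 Fzd7 came first at 5.12 tags per M per kb, followed by Wnt6 (1.89) and Ctnnb1 (1.84), whose intervals overlap. Axin2 (1.63) and Tcf7l1 (1.43) followed, each apart from its neighbours. The intervals of Sfrp1 (1.10) and Dkk1 (1.08) overlap. Among the lowest, those of Wnt3 (0.855) and Tcf7 (0.791) overlap, and so do those of Tcf7 and Lef1 (0.730). Overlap of 2 intervals does not show that the levels are the same. In H3K4me1 Tcf7l1 came first at 2.20, then Fzd7 (2.07) and Ctnnb1 (1.60), and the lowest were Axin2 (0.701) and Wnt3 (0.650), whose intervals overlap. In H3K4me2 Fzd7 was again first at 3.75, with Tcf7l1, Wnt6, Tcf7 and Ctnnb1 close together at 1.74, 1.72, 1.64 and 1.64.

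The H3K4me3 peaks at the starts were kept under both treatments. Counting the outermost listed start of each gene, all 9 members with one had it inside an H3K4me3 and an H3K4me2 peak in every condition. Over all 17492 genes with a listed start, the share was 64.0% (MM-401), 66.0% (4-OHT) and 66.0% (untreated) for H3K4me3, and 66.9%, 68.8% and 68.6% for H3K4me2. H3K4me1 covered the outermost start of 5 members in MM-401 cells, 5 in 4-OHT cells and 4 in untreated cells, where 36.3%, 47.7% and 40.6% of genes had one. The inner listed start of Tcf7 was covered by H3K4me1 in every condition. The strongest H3K4me3 start peak was wider than in untreated cells for 6 of 10 members after MM-401 (width ratios 0.898 to 1.14, median 1.02) and for 6 of 10 after 4-OHT (0.964 to 1.47, median 1.05). Wnt3 and Ctnnb1 were the widest relative to untreated cells after 4-OHT, at 1.47 and 1.38. Widths depend on where neighbouring peaks were joined. They also differed between whole lists: the median H3K4me3 peak was 1891 bp (MM-401), 1343 bp (4-OHT) and 1305 bp (untreated). The modelled fragments were 293, 186 and 184 bp in the same order. The share of all genes with a wider start peak is not given here, so the counts of members have no background.

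**Figure D4:**
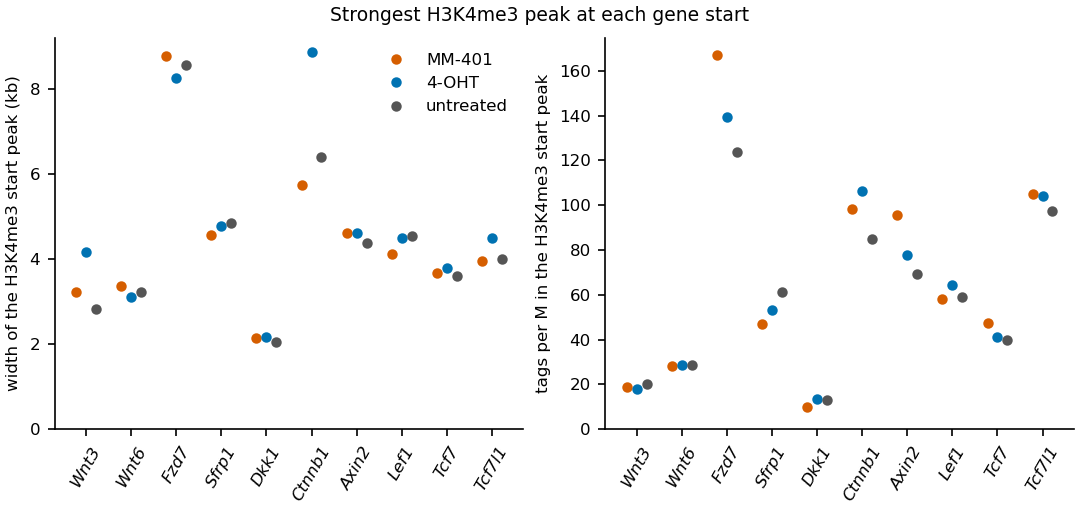
Width in kb (left) and tags per M (right) of the strongest H3K4me3 peak at each gene start in MM-401, 4-OHT and untreated cells, 1 library each. The widths of Ctnnb1 and Wnt3 stand out in 4-OHT cells, at 8854 and 4161 bp, and Fzd7 has the highest tag level in each condition.

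Counted only within 1 kb of a start, H3K4me1 gave more members past 1.5-fold than the whole windows. After MM-401, Lef1 and Axin2 were higher, where 7.09% of genes were higher, and Ctnnb1 was lower, where 17.4% of genes were. After 4-OHT, Axin2, Lef1 and Tcf7l1 were higher, where 20.2% of genes were. Lef1 held 50.8 tags per M there in MM-401 cells, 42.4 in 4-OHT cells and 23.4 in untreated cells. Its MM-401 start peak was 13505 bp long, over ground where untreated cells had peaks of 8710 and 5653 bp, of which the longer ended more than 1 kb from the start. At Ctnnb1 the MM-401 value was 3.29, against 73.0 in 4-OHT cells and 50.3 in untreated cells, because the 15511-bp MM-401 peak begins 1202 bp from the first start and lies more than 1 kb from the second as well. These counts therefore turn on where a long peak begins, since tags are summed over whole peaks.

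Away from the starts, the untreated peaks that met no MM-401 peak were small. Of the 109, 92 and 61 untreated H3K4me1, H3K4me2 and H3K4me3 peaks of the members, 19, 20 and 31 (17.4%, 21.7% and 50.8%) met no MM-401 peak of the same mark, where 34.4%, 33.8% and 38.2% of all untreated peaks did. Of these, 0 lay at a start. The 31 H3K4me3 peaks held 18 to 126 tags each, with a median of 48, against a median of 322.5 for those that met one, and 15 of them lay in Tcf7l1 and 7 in Lef1. The MM-401 libraries held 49.5% to 60.3% of the untreated tags. With both lists cut to equal length by score the counts were 9 of 88, 2 of 72 and 4 of 33. The shares of all peaks under that cut are not given here, so these counts have no background. After 4-OHT 11, 1 and 5 untreated peaks met none, beside 9.35%, 6.44% and 8.19% of all, and 7 of the 11 H3K4me1 peaks made up the Tcf7l1 stretch. Those 11 were not small, with a median of 246 tags and up to 2382, against a median of 170.5 for those that met one. In the other direction 6 of 91, 16 of 101 and 11 of 65 4-OHT peaks met no untreated peak, where 16.7%, 18.2% and 15.6% of all 4-OHT peaks did. After MM-401 the counts were 0 of 88, 2 of 74 and 0 of 30, beside 3.36%, 2.7% and 0.864%.

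Mll1 peaks were listed at Sfrp1, Ctnnb1 and Tcf7l1, 3 of the 10 members, where 15.8% of all genes had one inside or within 10 kb. All were small. The Sfrp1 peak (chr8:23410618-23410811) held 17 tags with a deposited false discovery rate of 7.38%, and lies beside the lower end of the gene, under its H3K4me1, H3K4me2 and H3K4me3 peaks. The Ctnnb1 peak (chr9:120932855-120933065) held 12 tags at a rate of 2.08% and lies at -545 to -335 bp relative to the first start, next to the CpG-dense promoter shown above and under peaks of all 3 marks. The Tcf7l1 peak (chr6:72780929-72781115) held 12 tags at a rate of 1.73% and lies in the gene 7930 to 8116 bp behind the start, under an H3K4me1 peak, just before the blank stretch. Within 1 kb of a start the count was 2 of 10, where 4.11% of all genes had one. The Mll1 library was weakly enriched, with 0.285% of 30.1 M filtered tags in 4004 peaks and a modelled fragment of 53 bp, and the other 7 members, with no listed peak, are not shown to lack Mll1. H3K4me3 at the 3 genes did not move one way: the window ratios after MM-401 were -0.45 (Sfrp1), 0.18 (Ctnnb1) and -0.19 (Tcf7l1), and after 4-OHT -0.22, 0.37 and 0.25.

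**Figure D5:**
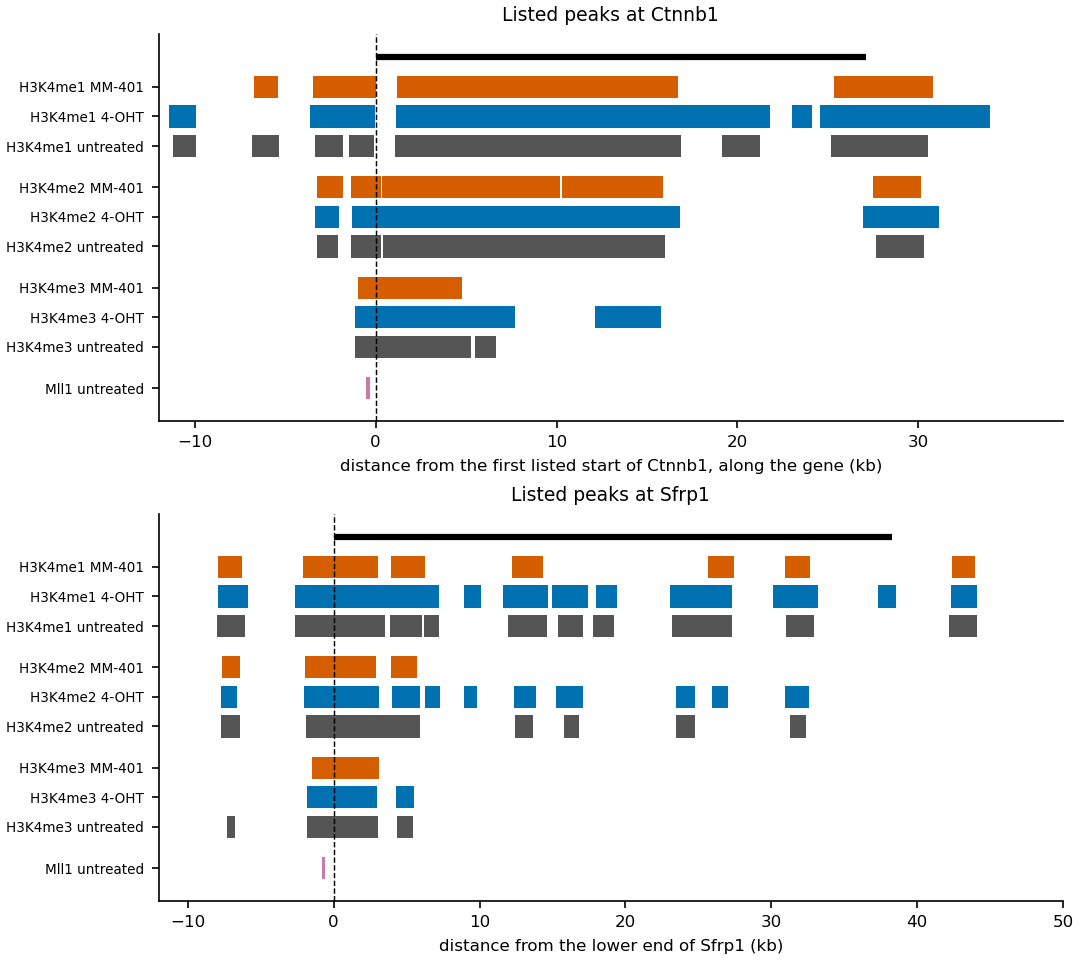
Listed peaks at Ctnnb1 (top) and Sfrp1 (bottom) by distance in kb from the first listed start of Ctnnb1 and from the lower end of Sfrp1, a row for each mark and condition (MM-401, 4-OHT, untreated) and for Mll1; black bars are the genes. The Mll1 peak of Ctnnb1 lies at -545 to -335 bp from the start, and the 4-OHT rows of Ctnnb1 hold the longest peak of each mark.

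A wider list of 79 other Wnt pathway genes had members past 1.5-fold in both directions in H3K4me1 after MM-401. In H3K4me1 3 of the 79 were higher and 7 lower after MM-401 (median -0.06), beside 2.74% and 17.5% of all genes. In H3K4me2 0 were higher and 1 lower (median 0.12), beside 1.86% and 6.69%, and in H3K4me3 0 were higher and 4 lower (median -0.07), beside 1.33% and 11.5%. After 4-OHT 3 were higher and 0 lower in H3K4me1 (median 0.08), beside 13.6% and 2.8% of all genes, where 16.4% were past 1.5-fold in either direction. In H3K4me2 1 was higher and 0 lower (median -0.02), beside 4.24% and 1.72%, and in H3K4me3 0 were higher and 0 lower (median -0.01), beside 3.17% and 2.49%. The share in either direction in H3K4me3 after MM-401 was 12.9% of all genes. As for the members, these shares are not matched for level. The inhibitors, 15 of the 79 genes, held 3 of the 4 genes lower in H3K4me3 after MM-401, where 11.5% of all genes were lower. The lowest was Dkk4, a relative of Dkk1, at 2.40 tags per M in MM-401 cells (31 tags), against 8.07 in untreated cells (204 tags), a ratio of -1.75 (-2.35 to -1.20). The ligand Wnt1 followed at 13.2 tags per M in MM-401 cells, against 27.9 in untreated cells. At the other end were the co-repressor Tle3 (157 against 123) and the co-receptor Lrp5 (176 against 141), both under 1.5-fold. By role, the highest median H3K4me3 ratio after MM-401 was 0.20, over 10 cytoplasmic genes. The lowest were -0.29 over 6 target genes and -0.22 over 15 inhibitors, beside 0.07 over all genes. The medians of the other roles ran from -0.14 to 0.07.

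Lrp5, which encodes the co-receptor that Dkk1 blocks, was lower in H3K4me1 after both treatments and higher in H3K4me2 after 4-OHT. Its H3K4me1 was 64.3 tags per M in MM-401 cells and 86.7 in 4-OHT cells, against 124.9 in untreated cells, ratios of -0.96 and -0.53. Its H3K4me2 in 4-OHT cells was 185, against 113 in untreated cells (0.70). Treated against untreated tags per M are given for the rest. Wnt2b was low in H3K4me1 after MM-401 (14.3 against 24.8), and Wnt10a, which shares peaks with Wnt6, and Rspo3 were high (102 against 62.4, and 11.8 against 7.24). After 4-OHT, Wnt10b (54.4 against 31.3) and the scaffold Axin1 (69.3 against 43.1) were highest in H3K4me1 and Wnt8b (20.6 against 28.1) was low. In H3K4me2, Dkk4 (11.5 against 19.3) and Dkk3 (16.8 against 25.2) were lowest after MM-401 and Wnt2 (26.2 against 18.2) and Wnt10a (139 against 102) highest. After 4-OHT, Dkk3 (20.4 against 25.2) and Dkk2 (17.1 against 21.1) were lowest in H3K4me2 and Notum (115 against 83.3) was high. In H3K4me3 after 4-OHT, Dkk3 (11.4 against 16.8) and Wnt1 (20.5 against 27.9) were lowest and Ror2 (175 against 125) and Ccnd1 (130.2 against 99.97) highest. Mll1 peaks were listed at 13 of the 79 genes, beside the 15.8% of all genes, from 9 to 32 tags each, with the most at the receptor Ror2. The other 12 were Wnt10a, Fzd5, Kremen1, Dvl2, Dvl3, Apc, Apc2, Pygo1, Pygo2, Tle1, Tle3 and Ccnd1.

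Over the 9 mark libraries, the genes whose log2 levels lay nearest to Ctnnb1 included Banp and Cblc, at Euclidean distances of 0.32 and 0.32, where the median over all genes was 4.96. Nearest to Axin2 were Tigd5, H3c11 and Gm36722, at 0.27, 0.30 and 0.30, with a median of 3.96.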

How the data were processed

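Peaks were called by the authors in each precipitated library alone against an input, with MACS 1.4.2 per the file headers (p cutoff 1e-05, 1 tag kept per position). The submitters' processing notes name Bowtie2, SAMtools 1.5, MACS2 and the build mm10, and the headers were followed for the caller. The deposited counts are filtered tags in a peak, not scaled to depth. Each peak's deposited score is the caller's p on a negative log10 scale, times 10, the deposited percent is its false discovery rate, and the deposited ratio is fold enrichment, which was not used. Width is the authors' peak length in bp.

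Genes were the 21887 protein-coding genes of RefSeq GRCm38.p6. Tags of whole peaks touching a gene or the 10 kb around it were summed and divided by the library's filtered tags. Genes with at least 1 tag per M in either library were tested against 1.5-fold. Sfrp1 has no listed start, so both of its ends served. Levels carry exact Poisson intervals, and ratios carry exact binomial intervals conditional on the sum of tags. The scripts were tested on simulated data. Each group is 1 library, so no p-values were computed. The members, the wider list, the tests and the alternatives were chosen with earlier results of these data known. All 10 members are named, and of the wider list the 2 highest and 2 lowest ratios per comparison (at least 5 untreated tags per M) and the genes with an Mll1 peak. The genes nearest to Ctnnb1 and Axin2 were taken over log2(tags per M + 1) of the 9 mark libraries, leaving out genes that share a peak. A gene that the rules picked and a cell type marker are not reported here. Python 3.11.15, pandas 2.3.3, NumPy 2.4.6 and SciPy 1.17.1 were used.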

Additional observations from a re-analysis of the deposited data

How the results depend on the processing

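Of 420 member ratios under 7 other settings, 33 changed sign and 9 crossed 1.5-fold, of which 13 and 6 came from counting only peaks within 1 kb of the start. That setting moved the members' median ratio in H3K4me1 to 0.29 after MM-401 and 0.39 after 4-OHT, with 3 members past 1.5-fold in each, in H3K4me2 after 4-OHT to 0.024, and in H3K4me3 after MM-401 to 0.049 with 0 members past it. It turned Tcf7l1 H3K4me1 after 4-OHT to 0.84, and leaving out the blank stretch, a choice made after the data were examined, gave 0.26. With the gene body and 1 kb around it, the H3K4me1 median after MM-401 was 0.31 and 0 members were past 1.5-fold in H3K4me3, where Dkk1 stood at -0.36. Per M tags in peaks, the medians were 0.31 in H3K4me1 after MM-401 with 1 member past 1.5-fold (Wnt6, 0.64), 0.050 in H3K4me1 after 4-OHT and -0.031 in H3K4me2 after 4-OHT. With a score of at least 100, the H3K4me1 median after MM-401 was 0.051 with 1 member past 1.5-fold (Sfrp1, -0.87), and 0 members kept an Mll1 peak. The H3K4me3 median after MM-401 was 0.12 without Tcf7l1. Untreated member peaks that met no MM-401 peak numbered 11, 9 and 20 in H3K4me1, H3K4me2 and H3K4me3 with that score, and 9, 2 and 4 with lists of equal length. For 4-OHT they numbered 0 in H3K4me2 and 2 in H3K4me3 with that score. The shares of all peaks under these settings are not given here, so these counts have no background. Apart from the settings whose construction shows it, the cause was not tested. No paired analysis was possible because each group has 1 library. Values that rest on few tags include the Mll1 peaks (9 to 32), Dkk4 H3K4me3 in MM-401 cells (31), the Axin2 H3K4me1 start peaks (39 in MM-401 and 34 in untreated cells) and the unmatched H3K4me3 peaks (from 18).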
